A study of Drosophila melanogaster with 8 samples.

Results

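Translation elongation factors carry out the cycle by which the ribosome adds amino acids to a growing protein. Members were the probe sets (groups of array probes for 1 transcript) whose single gene symbol was 1 of 7 elongation factor names, and 4 of the 7 genes were measured, with 1 probe set each, among 11982 genes named on the array. They were eEF1gamma, eEF1delta, eEF1alpha2 and eEF5. No probe set carries eEF1alpha1, eEF1beta or eEF2 as its single symbol in the annotation used, so these 3 genes are not analysed here. eEF1gamma was picked because it was higher after a light pulse. Its values between the groups are therefore a description with no test, and the other genes were included by family to show whether elongation factors moved together.

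Heads of Canton-S flies, a wild-type laboratory strain of Drosophila melanogaster, were compared in 2 groups of 4 arrays. Pulsed flies received 30 min of saturating light at ZT 15, where ZT (zeitgeber time) counts hours from lights on, 3 h into darkness, and were frozen 1 h later, at ZT 16.5. Unpulsed flies were sampled at ZT 16.5 without the pulse. Flies of both groups were 3 to 5 days old and had been kept at 25 °C for 4 days in cycles of 12 h of light and 12 h of darkness. The labels give neither the sex nor the origin of the replicates (separate or shared collections of flies), so p-values measure only the spread between these samples, which may be technical.

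eEF1A, the alpha subunit, carries each aminoacyl-tRNA to the ribosome and hydrolyses GTP on a codon match. The eEF1B complex then exchanges the bound GDP for GTP, with beta and delta as exchange subunits and gamma as the subunit that holds the complex together. eEF2 moves the ribosome along the message by one codon, and eEF5, long known as eIF5A and modified with the unusual amino acid hypusine, helps ribosomes that stall on difficult peptide bonds such as those of consecutive prolines. Elongation factors are among the abundant proteins of most animal cells.

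Arrays were alike, with medians of 2.95 to 3.07 log2 units, correlations across probe sets of 0.995 to 0.998 among 7 arrays, and 0.985 to 0.988 between pulsed replicate 2 and the rest. Pulsed replicate 2 also carried transcripts of the male reproductive tract, with a summed level of 10.7 log2 units against 4.38 to 4.42 on the other arrays. Yolk protein transcripts were low on pulsed replicates 3 and 4 and on unpulsed replicate 1. The head label was borne out by photoreceptor markers, with a summed level of 15.1 to 15.5 log2 units. Neuronal markers had a summed level of 10.2 to 10.6, carried by elav (8.68 to 9.49) and nSyb (9.39 to 9.84). The other neuronal markers measured, brp (3.65 to 4.11) and para (2.89 to 4.29), had low signals. At a limma adjusted p of 0.05 the count was 0 of 18769 probe sets, and 902 had an unadjusted p under 0.05.

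eEF1gamma was 1.20-fold higher in pulsed heads, eEF1delta was close to its unpulsed level on the high side, and eEF1alpha2 and eEF5 lay on the low side. The 4 genes did not share a direction in mean, with 2 higher and 2 lower. Their median log2 difference was 0.0092, against -0.0031 over all probe sets tested. These counts and the median include eEF1gamma, whose direction was fixed by the choice, and are a description. Of the genes included by family, eEF1delta was higher and eEF1alpha2 and eEF5 were lower. The 95% confidence intervals of eEF1delta and eEF1alpha2 included 0. Over all probe sets 41.4% had a higher mean in pulsed heads. At a limma adjusted p of 0.05, 0 of the 4 were called, as were 0% of all probe sets. The count of members with an unadjusted p under 0.05 was 2, against 4.81% of all probe sets, and 1 of these is eEF1gamma, which was chosen for its difference. The other is eEF5. With the RNA integrity covariate described below, the count was 1 of 4, against 953 of 18769 probe sets. That 1 is eEF1gamma, so no gene included by family was counted there.

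eEF1gamma, the structural subunit of the exchange complex, was measured at 13.26, 13.35, 13.36 and 13.26 log2 units on the 4 pulsed arrays, against 13.04, 13.04, 13.01 and 13.09 on the 4 unpulsed arrays. Every pulsed array lay above every unpulsed array, and the nearest pair was 0.17 apart. Groups did not overlap for 2.56% of all probe sets, from which nothing is read here because eEF1gamma was picked on this contrast. The means were 13.31 ± 0.053 in pulsed and 13.05 ± 0.034 in unpulsed heads (SD, n = 4 each), a log2 difference of 0.26 (SE 0.031). Of the 11261 brighter probe sets (those at or above the 40th percentile of mean value), 8.79% differed by as much or more in either direction. The residual SD of eEF1gamma was 0.0445 log2 units, against a median of 0.133 among brighter probe sets, which reach down to low signals.

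Without pulsed replicate 2, the array with male tract transcripts, the eEF1gamma difference was 0.25 (SE 0.032). Leaving out any other single array gave 0.25 to 0.28. As the groups did not overlap, leaving out 1 array could not turn the sign, and the part of sample composition was not tested. The yolk-low arrays included the highest and the lowest of the pulsed eEF1gamma values, and unpulsed replicate 1 lay inside the unpulsed range. Measures of RNA integrity differed in mean between the groups, with no overlap for GAPDH alone. For the array's eIF-4a control, the 3′ minus 5′ log2 difference ran from 2.81 to 3.15 on pulsed and from 3.13 to 3.42 on unpulsed arrays. For GAPDH it ran from 0.805 to 0.928 on pulsed and from 0.977 to 1.09 on unpulsed arrays. For actin it ran from 3.18 to 3.62 on pulsed and from 3.52 to 3.65 on unpulsed arrays. The mean of these controls overlapped too, with 2.286 to 2.568 on pulsed and 2.544 to 2.699 on unpulsed arrays. With the mean of the eIF-4a, GAPDH and actin values as a covariate the eEF1gamma difference was 0.21 (SE 0.045). The summed level of 4 glial markers was 12.01 to 12.10 log2 units in pulsed and 12.13 to 12.41 in unpulsed heads, with no overlap. This came through 1 gene, nrv2 (-0.37). Of the 4 genes, 2 were higher and 2 lower in mean. The defining glial transcription factor repo was at -0.044, alrm at 0.0013 and moody at 0.015. Fat body markers had a summed level of 14.1 to 14.7 log2 units in pulsed and 14.5 to 15.1 in unpulsed heads, with overlap. Of 5 genes, 4 were lower in mean: the 3 yolk protein genes and apolpp, a lipoprotein gene (-0.24, SE 0.080). The yolk protein means average over yolk-low and other arrays in both groups, and their groups overlapped, with Yp1 at -1.64 (SE 2.50). The fifth gene, Fbp1, had a low signal of 2.46 to 2.49. In whole heads, fewer cells of a type and less RNA per cell cannot be told apart, and the part of glia and fat body in the elongation factor values was not tested.

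**Figure D1:**
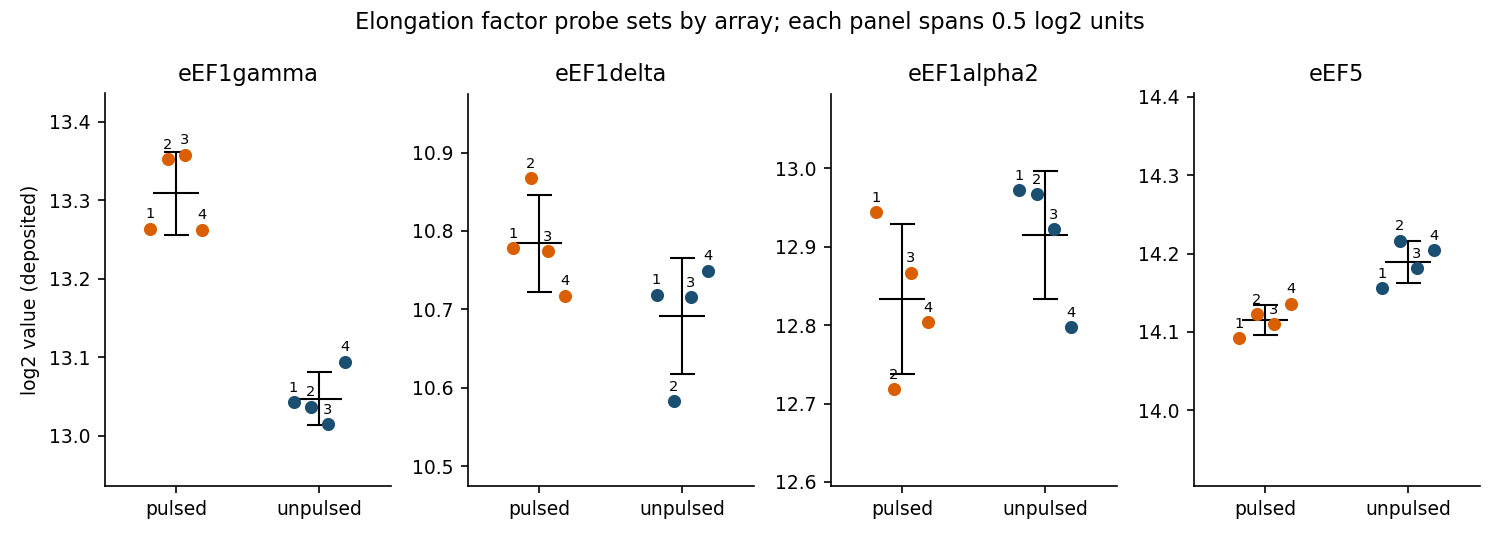
Log2 values of the 4 elongation factor probe sets on each array, pulsed (orange) left of unpulsed (blue), with replicate numbers beside the points and bars at the mean ± SD (n = 4). All 4 pulsed arrays lie above the unpulsed ones for eEF1gamma and below them for eEF5, while the groups overlap for eEF1delta and eEF1alpha2.

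eEF1delta, an exchange subunit of the same complex, was at 10.78, 10.87, 10.77 and 10.72 log2 units on pulsed arrays, against 10.72, 10.58, 10.72 and 10.75 on unpulsed arrays. The groups overlapped, since pulsed replicate 4 lay below the highest unpulsed array, and the highest pulsed value was that of replicate 2. The log2 difference was 0.093 (SE 0.046, limma adjusted p = 1.00, 95% confidence interval -0.016 to 0.20). It was 0.065 without pulsed replicate 2 and 0.056 without unpulsed replicate 2. The same covariate gave -0.013, so its direction depended on it. It was not tested against the eEF1gamma difference, because that gene was chosen for its own.

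eEF1alpha2, which encodes a form of the tRNA-delivering subunit, was at 12.94, 12.72, 12.87 and 12.80 log2 units in pulsed heads, against 12.97, 12.97, 12.92 and 12.80 in unpulsed heads. The groups overlapped over most of their range. The log2 difference was -0.082 (SE 0.059, limma adjusted p = 1.00, 95% confidence interval -0.22 to 0.058), and it was -0.043 without pulsed replicate 2, which had the lowest value of all 8 arrays. The probe set has a name ending in _s_at, which in Affymetrix naming marks probes that can match more than 1 transcript, and eEF1alpha1 is a close copy of this gene. Signal from eEF1alpha1 in it cannot be told apart. The probe sets of eEF1gamma and eEF5 carry the same ending.

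eEF5, the hypusine-bearing factor, was at 14.09, 14.12, 14.11 and 14.14 log2 units on pulsed arrays, against 14.16, 14.22, 14.18 and 14.20 on unpulsed arrays. All pulsed arrays lay below all unpulsed arrays, by 0.019 at the nearest pair, as groups did in this direction for 1.26% of all probe sets. The log2 difference was -0.074 (SE 0.018, 95% confidence interval -0.12 to -0.032), a 0.950-fold level in pulsed heads. It was not called once adjusted for all 18769 probe sets (limma adjusted p = 0.805, unadjusted p = 0.00427). Without pulsed replicate 2 the difference was -0.077. With the RNA integrity covariate it was -0.048 (SE 0.028).

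Replicate spread differed among the genes. The residual SD was 0.0232 log2 units for eEF5, 0.0445 for eEF1gamma, 0.0683 for eEF1delta and 0.0888 for eEF1alpha2. Of the brighter probe sets, 2.42% had a smaller residual SD than eEF5, 17.7% a smaller one than eEF1delta and 27.2% a smaller one than eEF1alpha2. The members thus repeated more closely between arrays than most brighter probe sets did. Over all probe sets, dim ones included, this did not hold for every member. There 28.4% had a smaller residual SD than eEF5, 47.0% than eEF1delta and 53.6% than eEF1alpha2. The brighter probe sets reach down to low signals, with mRRF2 (2.72 to 2.95 log2 units) among them, so levels were not alike. Close repeats were not particular to the members. Other translation genes of high signal had residual SDs of 0.0330 (eIF4A), 0.0574 (Tctp) and 0.228 (pAbp). Deviations of the members from their group means had mixed signs. On each array 1 to 3 of the 4 genes lay above their group mean, and on no array did all 4 lie on the same side. With only 4 genes, these counts cannot show whether the genes run together. On pulsed replicate 2, eEF1delta was 0.083 above its group mean and eEF1alpha2 0.11 below it (-0.11).

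**Figure D2:**
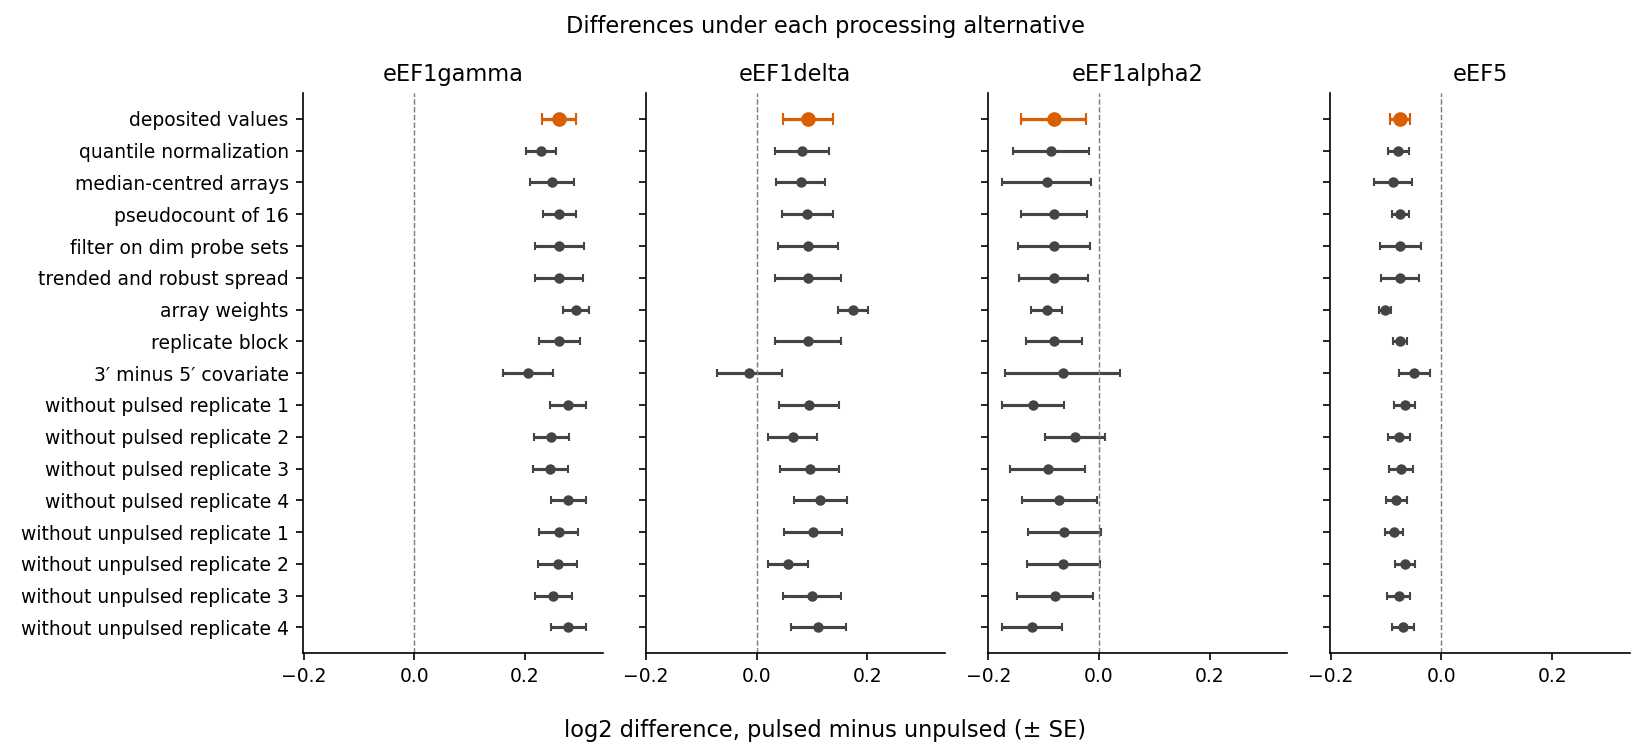
Log2 difference, pulsed minus unpulsed, of the 4 elongation factors (points, ± SE) with the deposited values (orange) and under 16 alternatives of processing or of the arrays kept. eEF1gamma lies between 0.21 and 0.29 throughout and eEF5 between -0.10 and -0.048, while eEF1delta reaches -0.013 with the 3′ minus 5′ covariate.

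Likeness to eEF1gamma was measured as the root mean square difference between mean-centred log2 values over the 8 arrays, across 13646 other probe sets with 1 symbol. Since eEF1gamma was picked for its difference between the groups, genes like it differ between the groups too, and the values are a description. The nearest was TyrRS, the tyrosyl-tRNA synthetase, at 0.044 log2 units. It was followed by ORMDL, a regulator of sphingolipid synthesis (0.046), Sgf29, a subunit of the SAGA chromatin complex (0.055), CG4854 (0.057), ppl, of the glycine cleavage system (0.058), and CG30431 (0.058). TyrRS was at 8.42, 8.51, 8.46 and 8.42 log2 units in pulsed heads, against 8.07, 8.19, 8.16 and 8.23 in unpulsed heads. The log2 differences of the 6 genes ran from 0.19 for CG30431 to 0.29 for TyrRS, and in each the groups did not overlap. CG4854 had a low signal, with 3.39 to 3.51 log2 units on pulsed and 3.20 to 3.27 on unpulsed arrays, near the array medians, and its difference was 0.084 with a pseudocount of 16. With the RNA integrity covariate ppl was at 0.082 and CG30431 at 0.12. None of the 6 is an elongation factor. Its complex partner eEF1delta came at place 224, with a root mean square difference of 0.099. eEF5 came at place 7721 (0.17) and eEF1alpha2 at place 9248 (0.20).

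**Figure D3:**
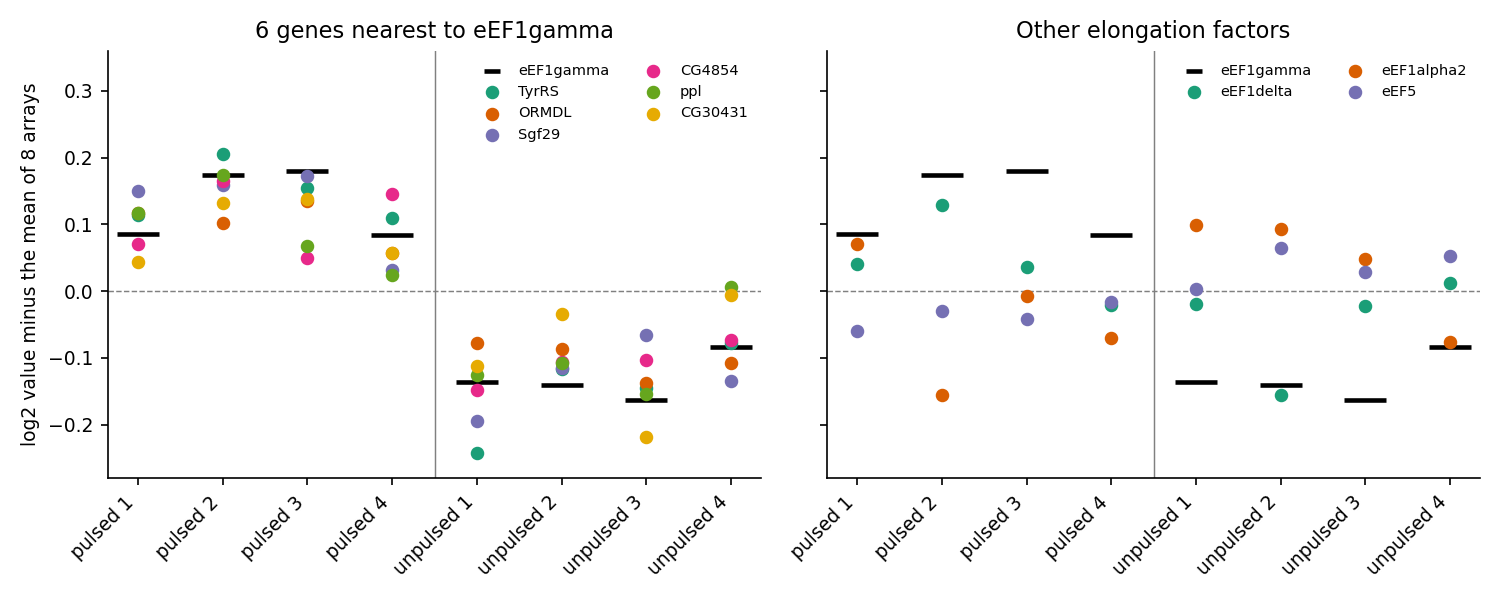
Log2 values minus the mean over 8 arrays for the 6 genes nearest to eEF1gamma (left) and for the other elongation factors (right), on pulsed and then unpulsed arrays, with eEF1gamma as black bars. The 6 nearest genes lie above 0 on all pulsed arrays, whereas of the other elongation factors eEF1delta is the nearest to eEF1gamma, at 0.099 log2 units.

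The rest of the translation machinery was set beside the elongation factors in 5 lists, which together had 60 of 70 genes measured. Of these, limma called 0 in either direction at an adjusted p of 0.05, 32 were higher and 28 lower in pulsed heads, and the median log2 difference was 0.024. At an unadjusted p under 0.05 there were 7 higher and 1 lower, against 2.4% and 2.41% of all probe sets. Without pulsed replicate 2 the count in either direction was 6 of 60, against 609 of 18769 probe sets. The 3′ minus 5′ values given above differed in mean between the groups. With them as a covariate, 2 of the 60 genes had an unadjusted p under 0.05, against 953 of 18769 probe sets. At an adjusted p of 0.05, 0 of the 60 passed.

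Initiation factors, which bring the ribosome to the start codon, had 19 of 31 genes higher and a median log2 difference of 0.038. The 2 with the highest statistics were eIF2beta, a subunit of the factor that carries the initiator tRNA, at 0.16 (SE 0.030, limma adjusted p = 0.566), and eIF2Bbeta, a subunit of its exchange factor, at 0.20 (SE 0.062, limma adjusted p = 0.887). eIF2beta was at 10.19, 10.24, 10.16 and 10.24 log2 units in pulsed heads, against 10.12, 10.01, 10.02 and 10.05 in unpulsed heads. The groups did not overlap for either gene, as in this direction for 1.3% of all probe sets. With the RNA integrity covariate eIF2Bbeta was at 0.059 (SE 0.079), and with array weights at 0.12. The lowest statistics belonged to eIF4G1, the scaffold of the cap-binding complex (-0.18, SE 0.096), and eIF1, which guards start codon choice (-0.12, SE 0.065). eIF4G1 was at -0.11 without unpulsed replicate 1. eIF1 was at -0.069 without pulsed replicate 4, at -0.074 without unpulsed replicate 3 and at -0.20 with the covariate. At an unadjusted p under 0.05, 5 genes of the list were higher and 0 lower, against 2.4% and 2.41% of all probe sets. Without pulsed replicate 2 the number higher was 3 and the median 0.025. In that setting 609 of 18769 probe sets had an unadjusted p under 0.05 in either direction.

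Genes that modify or bind elongation factors had 4 of 8 higher and a median of 0.0052. nero, the deoxyhypusine hydroxylase that completes the modification of eEF5, was at 7.52, 7.56, 7.46 and 7.42 log2 units in pulsed heads, against 7.19, 7.09, 7.28 and 7.57 in unpulsed heads. Its log2 difference was 0.21 (SE 0.10, limma adjusted p = 1.00), and the groups overlapped through unpulsed replicate 4. With the RNA integrity covariate it was 0.053 (SE 0.16). Dph1, of the synthesis of diphthamide on eEF2, was at 0.12 (SE 0.065), and at 0.078 without unpulsed replicate 1. Tctp, the translationally controlled tumour protein, was at -0.046 (SE 0.039), a value that rested on unpulsed replicate 3, without which it was -0.0066. AIMP3, a protein of the tRNA synthetase complex, was at -0.032 (SE 0.063), and between -0.074 and 0.0019 with 1 array left out. In this list 0 genes had an unadjusted p under 0.05.

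Mitochondrial elongation factors, which serve the organelle's own ribosomes, had a median of 0.050 over 5 genes. mEFTu1, which delivers tRNA there, was at 0.050 (SE 0.039) and mEFTu2 at 0.10 (SE 0.083). Without pulsed replicate 1 they were at 0.023 and 0.050, and mEFTu1 was at 0.028 without unpulsed replicate 2. mEFG1, the translocation factor, was at 0.012 (SE 0.096), with a sign that turned with quantile normalization and with median-centred arrays (-0.0026 and -0.0012). mRRF2, a factor of ribosome recycling, was at -0.062 (SE 0.053) with a low signal of 2.72 to 2.86 log2 units on pulsed and 2.76 to 2.95 on unpulsed arrays, and was at -0.025 without unpulsed replicate 4. Termination and ribosome rescue genes had a median of 0.0047 over 6 genes, with DENR (0.082, SE 0.049) and MCTS1 (-0.20, SE 0.16), partners in reinitiation, on opposite sides. MCTS1 was at -0.084 without pulsed replicate 4 and at -0.11 without unpulsed replicate 3, and DENR at 0.023 with the covariate. eRF3, the release factor GTPase, was at 0.060 (SE 0.055) and pelo, which frees stalled ribosomes, at -0.087 (SE 0.074). Both rested on unpulsed replicate 3, without which eRF3 was at 0.0097 and pelo at -0.025. At an unadjusted p under 0.05 there were 0 genes in either list.

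Genes that control translation had 8 of 10 lower and a median of -0.069. At a limma unadjusted p under 0.05, 2 were higher and 1 lower, against 2.4% and 2.41% of all probe sets. The groups did not overlap for Lk6, higher in pulsed heads, as in this direction for 1.3% of all probe sets. S6k, the kinase of ribosomal protein S6, was at 9.52, 9.37, 9.54 and 9.41 log2 units in pulsed heads, against 9.54, 9.66, 9.63 and 9.59 in unpulsed heads. The groups touched at pulsed replicate 3 and unpulsed replicate 1, and the log2 difference was -0.14 (SE 0.047, limma adjusted p = 0.949). gig, the fly Tsc2 and an inhibitor of TOR signalling, was at -0.30 (SE 0.15). Lk6, the kinase of the cap-binding protein eIF4E, was at 0.16 (SE 0.056, limma adjusted p = 0.965), and at 0.062 (SE 0.085) with the RNA integrity covariate. raptor, a subunit of TOR complex 1, was at 0.18 (SE 0.065) with a low signal of 3.29 to 3.57 on pulsed and 3.16 to 3.31 log2 units on unpulsed arrays, and was at 0.069 with a pseudocount of 16. Without pulsed replicate 2, 6 of the 10 genes were lower and the list median was -0.036.

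**Figure D4:**
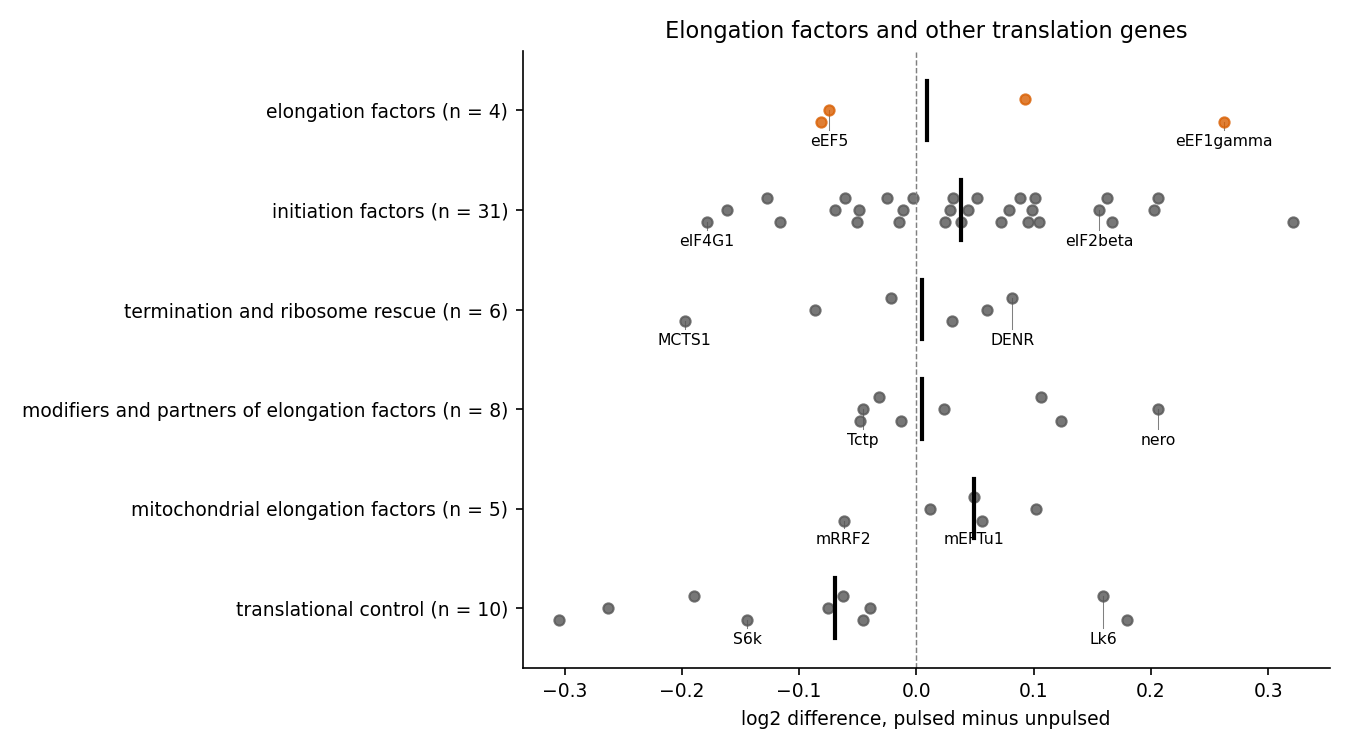
Log2 difference, pulsed minus unpulsed, of each measured gene of the elongation factors (orange) and of 5 other translation lists (grey), with a black bar at each list's median and the genes of highest and lowest moderated statistic named. Every list has genes on both sides of 0, and eEF1gamma, at 0.26, is the highest of the elongation factors.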

How the data were processed

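Total RNA of fly heads was biotin-labelled with an Affymetrix kit, per the labels' protocols, and the authors deposited its array signals as log2 values in a single table. That the scale is log2 was inferred from the range of the values. Probe summarisation, background correction and normalization are not given in the sources used here, and the values were used as they are. Of 18952 probe sets, 183 controls were left out. Symbols came from the platform annotation (13647 probe sets with 1 symbol, 402 with several, 4903 not listed), and 13544 were updated by gene number through the NCBI RefSeq table of Release 6 plus ISO1 MT, used for names only.

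Groups and replicate numbers came from the labels. All probe sets were fitted with limma 3.58.1 in R 4.3.3 (lmFit, eBayes, two-sided, Benjamini-Hochberg over 18769 probe sets, threshold 0.05). Each SE and 95% interval is from that fit. A gene in a list is its probe set with the highest mean. Members, lists and tests were chosen with earlier results of these data known. The text names all members, the 6 probe sets nearest to eEF1gamma and, in each translation list, the 2 genes at either end of the order by moderated statistic. Markers named by value, and arrays named as standing apart, were picked after their values were seen. The RNA integrity covariate averages the 3′ minus 5′ differences of eIF-4a, GAPDH and Act5C controls. Alternatives were a pseudocount of 16 added before the log, quantile normalization, centring of arrays on their median, a filter at the 40th percentile of mean value, a trended and robust spread, array weights, a replicate block, that covariate and each array left out.

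In 20 simulations of 4 against 4 arrays over 18769 probe sets, 200 of them changed, 51.7% of changes of 0.5 log2 units were recovered, 84.6% of those of 1 and 97.6% of those of 2, with 6.20% of calls false. No change smaller than 0.5 log2 units was simulated. The elongation factor differences ran from -0.082 to 0.26, and those of the other translation genes from -0.30 to 0.32. How often changes of those sizes are recovered was therefore not tested. The number of arrays limits the precision.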

Additional observations from a re-analysis of the deposited data

Results flagged for a closer look

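Values of 30 named genes were examined in each group of 4 arrays for 1 array far from the other 3, by Dixon's criterion, and 2 of 60 groups had one, where chance alone gives about 1 in 20. No elongation factor was among them. Sgf29, near eEF1gamma in its pattern, was at 4.93 log2 units on pulsed replicate 4, against 5.05 to 5.07 on the other pulsed arrays. Tctp was at 13.8 on unpulsed replicate 3, against 13.6 to 13.7 on the other unpulsed arrays.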

How the results depend on the processing

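The eEF1gamma difference was positive under all 16 alternatives, from which nothing is read because the gene was picked on this contrast. Its groups did not overlap, so leaving out 1 array could not turn the sign. The filter, the trended spread and the replicate block cannot change the estimate. The eEF1gamma difference ran from 0.2458 to 0.2779 with 1 array left out, and the 3′ minus 5′ covariate gave 0.21. Array weights, which rested mostly on unpulsed replicate 2 (weight 10.15) and pulsed replicate 3 (6.81), changed most counts. With them 2936 of 18769 probe sets passed, among them 3 of 4 elongation factors and 23 of 60 other translation genes. eEF1delta (0.17, adjusted p = 0.0135) and eEF5 (-0.10, adjusted p = 0.00727) were among the 3 members that passed there. The other was eEF1gamma, which was chosen for its difference. 1 probe set passed with median-centred arrays, with the filter and with the trended spread, and none was an elongation factor. At an unadjusted p of 0.05 there were 902 probe sets, 2 members and 8 other translation genes. In 2 alternatives chosen after seeing the data, those counts were 609, 2 and 6 without pulsed replicate 2, and 953, 1 and 2 with the covariate. Each of these member counts includes eEF1gamma, which was chosen on this contrast. The members' median difference was 0.039 with array weights and -0.031 with the covariate, and ran from -0.0040 to 0.022 with 1 array left out. Signs turned with the covariate for eEF1delta (-0.013), Tctp (0.018), mEFTu2 (-0.050) and mEFG1 (-0.032), and with array weights for AIMP3 (0.11) and mRRF2 (0.0031). mEFG1 was at -0.0026 with quantile normalization and -0.0012 with median-centred arrays, and its left-out-array range was -0.048 to 0.075. That of AIMP3 was -0.074 to 0.0019. The cause was not tested. Same-numbered pulsed and unpulsed arrays did not deviate together (correlations of -0.070 to 0.078), so the replicate block is given here only: it passed 0 probe sets and left the eEF1gamma difference at 0.26 (SE 0.037). Whether signal lies above background is not given by the deposited values, which limits statements on CG4854, raptor and mRRF2.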
